A study of Homo sapiens with 6 samples.

Results

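The enzymes that start O-glycosylation, the linking of sugars to serine and threonine of proteins, were followed in A549, a human lung cancer cell line, after transfection of siRNAs against MYEOV, a gene named for its overexpression in myeloma. The 10 enzymes are GALNT1, GALNT2, GALNT3, GALNT7, GALNT10, TMTC1, TMTC2, TMTC3, TMTC4 and POMT1, out of 14884 genes with a named row in the deposited table. They were taken by gene symbol from the platform annotation. GALNT1 and TMTC3 were picked because the siRNAs moved them in different ways, so their levels in these comparisons are given as a description and carry no test. The other 8 were taken for their families, at a time when earlier results of these data were known.

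The groups were cells transfected with MYEOV siRNA 1, with MYEOV siRNA 2 or with a control siRNA (siNC), with 2 arrays in each. All were grown alike, transfected with the lipid reagent RNAiMAX, and gave total RNA 48 hours later. The RNA was read on Affymetrix whole-transcript arrays, whose probes lie along each transcript. Values are log2 RMA signals, so a difference of 1 is a factor of 2 in signal. The labels do not say whether the arrays of a group came from separate transfections. Every p-value therefore sets a difference against a spread between arrays that may be only technical. That spread is estimated from all 3 groups and borrowed in part across genes. Neither the siRNA sequences nor the target of the control siRNA could be used here, since the labels do not state them. The cell line is a single tumour line, and the model is limited to it.

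Mucin-type O-glycosylation begins in the Golgi, where a polypeptide GalNAc transferase of the GALNT family moves N-acetylgalactosamine from UDP-GalNAc onto a protein, and other enzymes then lengthen the sugar. Some GALNT enzymes act on bare protein and others prefer protein that already carries a GalNAc. In the endoplasmic reticulum, mannose is added to proteins instead, by POMT1 together with POMT2 on dystroglycan and by the TMTC enzymes on cadherins. In epithelial tumours, changes in these sugars are well known on mucins at the cell surface.

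MYEOV had a signal of 5.34 and 5.19 with siRNA 1 and of 5.23 and 4.70 with siRNA 2, against 6.20 and 6.50 with the control siRNA. It was lower on each of the 4 arrays than on either control array, and fell by 52.9% with siRNA 1 and fell by 61.7% with siRNA 2. All 4 siRNA arrays lay under 5.45, the mean signal a gene had to reach to be tested. MYEOV thus reached this minimum only through the control arrays, and RMA understates differences of dim genes. The fall with siRNA 1 had a limma adjusted p of 0.0215, which rose to between 0.0671 and 0.146 when an array of siRNA 1 or of the control was left out and to 0.135 when dim genes were tested too. With siRNA 2 the fall of MYEOV had a limma adjusted p of 0.00516, under the same limit from the minimum. The log2 difference with siRNA 2 ran from -1.65 to -1.13 with each array left out. Array medians lay between 4.08 and 4.10. Of 5 epithelial markers, the 4 with a named row (KRT8, KRT18, KRT19 and EPCAM) were over the minimum for testing, whereas the endothelial markers PECAM1 and VWF were under it. CD68, used as a macrophage marker, was over it, at a mean of 9.39 with the control siRNA. No named row was used here for the 6 genes listed as high in A549, so the line itself was not checked beyond its epithelial markers.

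A gene had to reach a mean signal of 5.45, the median of all named genes, to be tested, which kept 7442 genes and 8 of the 10 enzymes. GALNT3, which protects the hormone FGF23 from cleavage, stayed under the minimum, with signals between 2.04 and 2.59 over all 6 arrays. TMTC1 stayed under it as well, with signals between 3.01 and 3.39. In both genes the arrays of each siRNA overlapped those of the control, and nothing can be said of them near this background. Replicate arrays of the 8 tested enzymes lay close together: the pooled SD within groups ran from 0.0283 for TMTC3 to 0.168 for GALNT1 in log2 signal, with a median of 0.0624 beside 0.0819 over all genes tested.

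TMTC3 and GALNT1 were the enzymes with the widest range, and TMTC2 followed. The 300 bases around the annotated starts of these genes are shown because they are the enzymes the results turn on; the arrays measured RNA and not the activity of these promoters. Sequences are from the RefSeq promoter table of GRCh38.p14, in which all 10 enzymes matched, and each runs 5′ to 3′ on the plus strand from 250 bases before to 50 bases after the start. Capitals mark the GC box GGGCGG, the CCAAT box CCAAT, the ETS core CCGGAAG and the TATA box TATAAA, searched on both strands. TMTC3 and TMTC2 have 1 listed start each, on chromosome 12, and GALNT1 has 3 on chromosome 18, of which the most downstream is shown.
TMTC3 (chr12:88142057-88142356): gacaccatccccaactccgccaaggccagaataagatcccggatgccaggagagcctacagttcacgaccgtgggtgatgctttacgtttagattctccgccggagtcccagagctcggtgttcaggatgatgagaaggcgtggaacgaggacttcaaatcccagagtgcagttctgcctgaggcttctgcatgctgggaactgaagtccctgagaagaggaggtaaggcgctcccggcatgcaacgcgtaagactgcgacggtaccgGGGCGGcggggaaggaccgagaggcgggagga
GALNT1 (chr18:35581490-35581789): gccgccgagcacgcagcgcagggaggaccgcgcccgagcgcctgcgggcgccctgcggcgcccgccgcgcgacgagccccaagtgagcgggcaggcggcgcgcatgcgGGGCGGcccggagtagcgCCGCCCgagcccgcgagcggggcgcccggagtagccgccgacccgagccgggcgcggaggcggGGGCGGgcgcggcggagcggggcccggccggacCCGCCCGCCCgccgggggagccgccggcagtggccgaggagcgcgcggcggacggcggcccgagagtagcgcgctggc
TMTC2 (chr12:82686656-82686955): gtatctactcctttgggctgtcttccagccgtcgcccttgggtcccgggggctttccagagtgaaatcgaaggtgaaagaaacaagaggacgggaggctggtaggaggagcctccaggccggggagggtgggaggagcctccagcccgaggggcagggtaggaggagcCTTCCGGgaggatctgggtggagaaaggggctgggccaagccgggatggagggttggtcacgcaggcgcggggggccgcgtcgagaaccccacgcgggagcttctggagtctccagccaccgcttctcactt
The TMTC3 window held 1 GC box near its 3′ end, 21 CpG pairs and 59.3% G and C. The GALNT1 window held 5 GC boxes, of which 2 overlap, 62 CpG pairs and 86.0% G and C. It was the richest of the listed GALNT1 starts. The upstream ones held 0 and 1 GC boxes, 9 and 50 CpG pairs, and 51.7% and 82.7% G and C. The TMTC2 window held no GC box and 1 ETS core, with 18 CpG pairs and 65.7% G and C. Over all 35116 promoters of the table, 45.0% held the GC box, 34.6% the CCAAT box, 10.3% the ETS core and 11.5% the TATA box, and the median number of CpG pairs was 14. At 1 or more of their listed starts, 9 of the 10 enzymes had a GC box and 6 a CCAAT box, 1 had the ETS core and 0 the TATA box. Enzymes with several starts had more windows to match, whereas the shares over the table count single promoters.

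TMTC3, an endoplasmic reticulum mannosyltransferase of cadherins, had a signal of 9.87 and 9.85 with siRNA 1 and of 7.68 and 7.62 with siRNA 2, against 9.62 and 9.64 with the control siRNA. Both arrays of siRNA 2 lay far below the other 4, and both arrays of siRNA 1 lay above both control arrays. The mean was 25.2% of the control signal with siRNA 2, a difference of -1.99, and 117% with siRNA 1, a difference of 0.23. The order of the levels was siRNA 1, control and siRNA 2, from high to low, and the spread within groups was 0.0152 with siRNA 1, 0.0444 with siRNA 2 and 0.0143 with the control (SD of log2 signal, n = 2 each). In a pool of cells, a smaller share of cells carrying the transcript and less transcript per cell cannot be told apart.

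GALNT1, a broadly expressed transferase that can act on bare protein, had a signal of 8.60 and 8.88 with siRNA 1 and of 10.15 and 10.31 with siRNA 2, against 9.51 and 9.77 with the control siRNA. The groups did not overlap, and the control lay between the siRNAs. The mean was 53.5% of the control signal with siRNA 1, a difference of -0.90, and 151% with siRNA 2, a difference of 0.59. The spread within groups was 0.193 with siRNA 1, 0.113 with siRNA 2 and 0.186 with the control (SD of log2 signal, n = 2 each), the largest pooled spread of the 8 tested enzymes. GALNT1 and TMTC3 thus stood in opposite orders, with GALNT1 highest and TMTC3 lowest with siRNA 2.

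**Figure D1:**
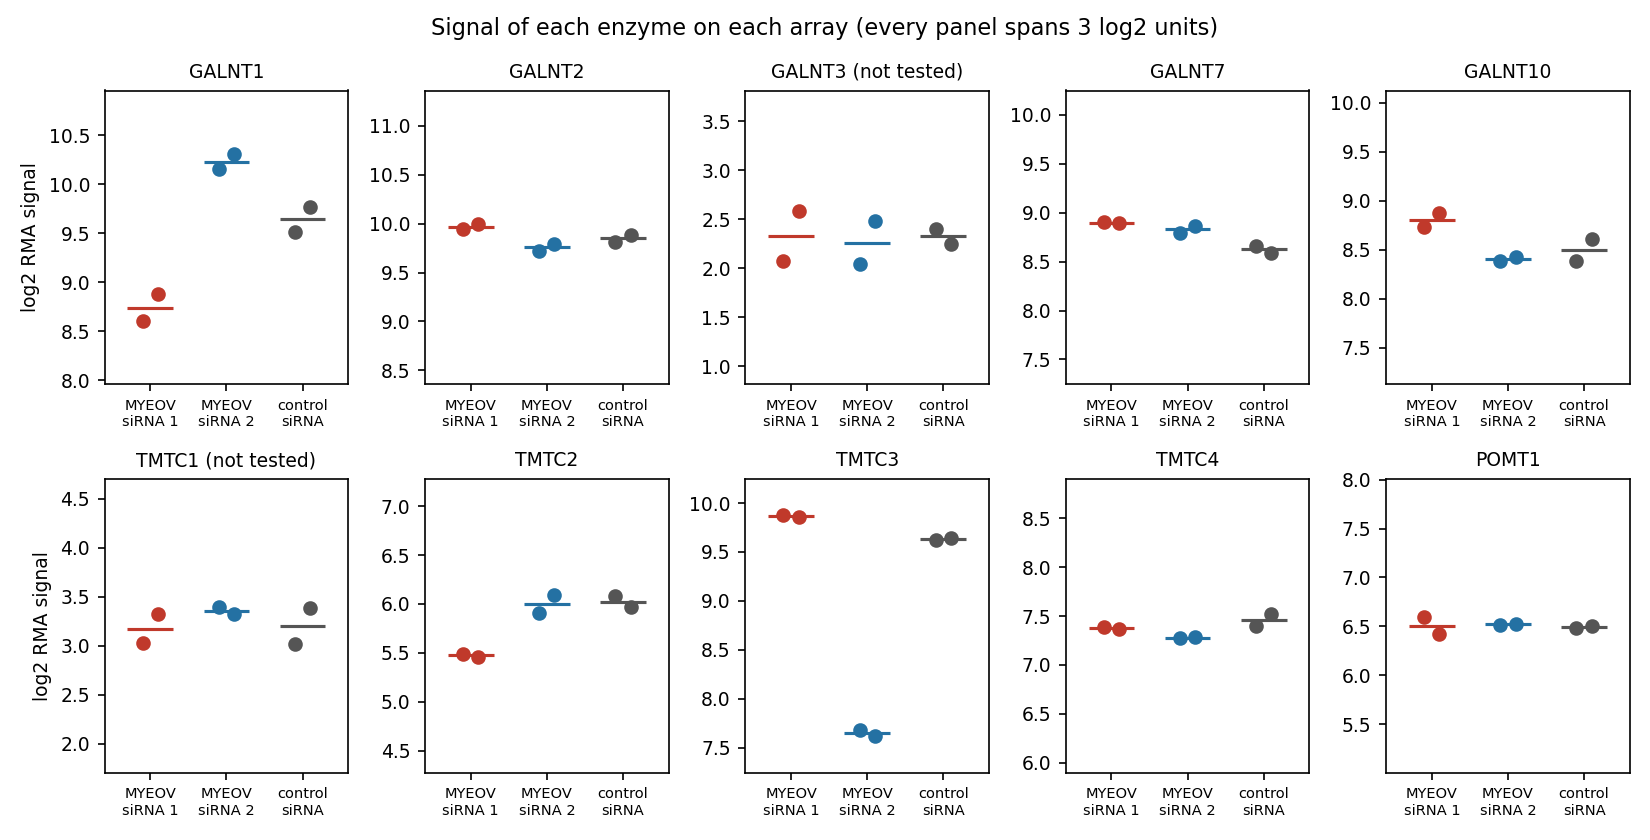
Log2 RMA signal (vertical axes, 3 log2 units in every panel) of the 10 enzymes on the 6 arrays, by siRNA (horizontal axes). Points are arrays and lines are group means. TMTC3 lies at 7.68 and 7.62 with siRNA 2, GALNT1 is lowest with siRNA 1 and highest with siRNA 2, and TMTC2 is lowest with siRNA 1. GALNT3 and TMTC1 were under the minimum and were not tested.

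TMTC2, another mannosyltransferase of the same family, fell with siRNA 1. Its signal was 5.49 and 5.46 with siRNA 1 and 5.91 and 6.09 with siRNA 2, against 6.08 and 5.97 with the control siRNA. Both siRNA 1 arrays lay below the other 4, and the siRNA 2 and control arrays overlapped. The signal fell by 31.6%, a log2 difference of -0.55 ± 0.09 (SE; 95% interval -0.75 to -0.35; limma, Benjamini-Hochberg adjusted p = 0.0188). With siRNA 2 the difference from control was -0.02 (interval -0.22 to 0.18, adjusted p = 0.916), and siRNA 1 minus siRNA 2 was -0.53 ± 0.09 (limma adjusted p = 0.0116). TMTC2 lies close to the minimum for testing, where RMA understates differences. The call against control was lost when any 1 array of siRNA 1 or the control was left out (adjusted p from 0.067 to 0.127), with no minimum (0.136) and with every row tested (0.0615), and ran from 0.0171 to 0.136 over all alternatives. The call against siRNA 2 was lost with no minimum (0.0837), without either siRNA 1 array (0.0672 and 0.0789) and without siRNA 2 replicate 2 (0.0636), with a range of 0.0086 to 0.0837.

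TMTC4, the remaining tested member of the family, had a signal of 7.39 and 7.36 with siRNA 1 and of 7.27 and 7.29 with siRNA 2, against 7.40 and 7.52 with the control siRNA. All 4 siRNA arrays lay below both control arrays, but by little. The differences of -0.08 with siRNA 1 (interval -0.25 to 0.09) and -0.18 with siRNA 2 (interval -0.35 to -0.01) did not pass the test (limma adjusted p = 0.603 and 0.207). The 3 tested TMTC genes thus had different profiles: TMTC2 was lowest with siRNA 1, TMTC3 was far lowest with siRNA 2, and TMTC4 group means stayed within 0.18 of the control.

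POMT1, which forms the mannosyltransferase of dystroglycan with POMT2, had nearly level signals. They were 6.59 and 6.42 with siRNA 1 and 6.52 and 6.53 with siRNA 2, against 6.48 and 6.50 with the control siRNA. Its differences were 0.01 (interval -0.17 to 0.20) and 0.03 (interval -0.15 to 0.22), with limma adjusted p = 0.950 and 0.870. The intervals hold no change above 0.22 in either direction.

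Among the other GalNAc transferases, GALNT10 differed between the siRNAs. GALNT10, which prefers protein that already carries GalNAc, had a signal of 8.74 and 8.87 with siRNA 1 and of 8.38 and 8.43 with siRNA 2, against 8.38 and 8.61 with the control siRNA. The siRNA 1 arrays were above all the others, while the siRNA 2 and control arrays overlapped. The difference of siRNA 1 minus siRNA 2 was 0.40 ± 0.10 (SE; interval 0.17 to 0.62; limma adjusted p = 0.0484), just past the threshold. It was lost with no minimum (0.208), with every row tested (0.118) and without any 1 array of either siRNA (0.109 to 0.224), and ran from 0.0149 to 0.224 over all alternatives. Against control the differences were 0.31 with siRNA 1 (interval 0.08 to 0.54, adjusted p = 0.136) and -0.09 with siRNA 2 (interval -0.32 to 0.14, adjusted p = 0.665).

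GALNT7, which also prefers protein with GalNAc in place, was the enzyme with higher signals on all 4 siRNA arrays. It had 8.90 and 8.89 with siRNA 1 and 8.80 and 8.87 with siRNA 2, against 8.66 and 8.59 with the control siRNA. Neither difference passed the test, at 0.27 with siRNA 1 (interval 0.11 to 0.44, limma adjusted p = 0.0786) and 0.21 with siRNA 2 (interval 0.05 to 0.37, adjusted p = 0.135). With siRNA 1 it passed with the minimum at the 75th percentile (adjusted p = 0.0261) and with a trend and robust variance prior (0.0323), and the range over alternatives was 0.0261 to 0.308. The siRNAs differed from each other by 0.07 in GALNT7 (interval -0.10 to 0.23, adjusted p = 0.628).

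GALNT2, like GALNT1 a broadly expressed transferase that starts chains on bare protein, had 9.95 and 9.99 with siRNA 1 and 9.72 and 9.79 with siRNA 2, against 9.82 and 9.88 with the control siRNA. The 3 groups did not overlap, and their order was the reverse of that of GALNT1. The differences were small, at 0.12 with siRNA 1 (limma adjusted p = 0.413), -0.09 with siRNA 2 (0.508) and 0.21 between siRNA 1 and siRNA 2 (interval 0.05 to 0.38, adjusted p = 0.114). The last passed with the minimum at the 75th percentile (0.0485) and with the trend and robust prior (0.0392). A second, dimmer row of GALNT2, just under the minimum, differed from control by 0.03 with siRNA 1 and 0.07 with siRNA 2, and between the siRNAs by -0.04, so it did not show that order.

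**Figure D2:**
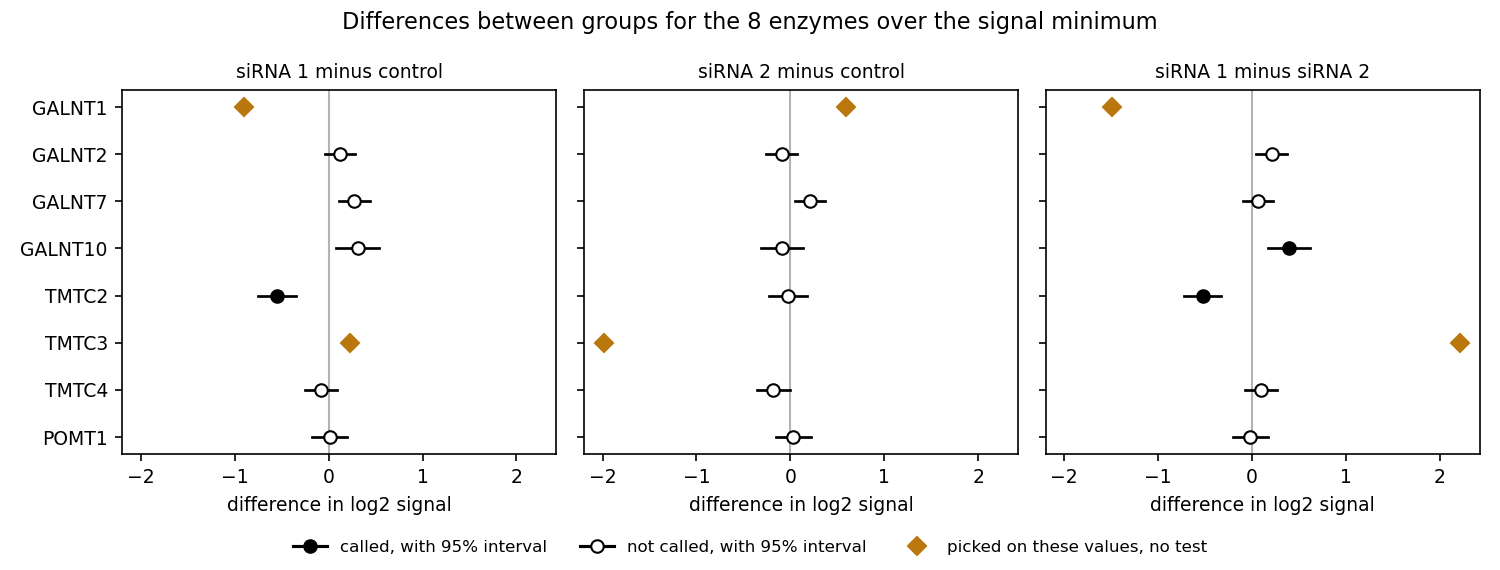
Difference in log2 signal (horizontal axes) of the 8 tested enzymes (vertical axis) for each siRNA minus control and for siRNA 1 minus siRNA 2. Circles carry limma 95% intervals and are filled where called, which is TMTC2 with siRNA 1 (-0.55) and, between the siRNAs, TMTC2 (-0.53) and GALNT10 (0.40). Diamonds are GALNT1 and TMTC3, which were picked on these values and have no interval.

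Of the 6 tested enzymes that were not picked on their values, 1 was called with siRNA 1, TMTC2, where 4.66% of the 7442 genes tested were called. With siRNA 2, 0 were called by limma, where 6.83% of all genes were. Between the siRNAs 2 were called, where 9.15% of all genes were. Before adjustment, p was under 0.05 for 3 of them with siRNA 1 (GALNT7, GALNT10 and TMTC2), beside 1430 of the 7442 genes, for 2 with siRNA 2 (GALNT7 and TMTC4), beside 1649, and for 3 between the siRNAs (GALNT2, GALNT10 and TMTC2), beside 1756. Arrays stood apart without overlap in 5 of 6 with siRNA 1 against control, beside 48.8% of all genes, in 4 of 6 with siRNA 2, beside 50.6%, and in 5 of 6 between the siRNAs, beside 54.5%. With 6 genes, nothing is read from these counts. The median differences were 0.07, -0.05 and 0.08, beside medians of 0.00 over all genes tested in each comparison. The comparisons with control share the same 2 control arrays.

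The rest of the pathway was followed through 8 lists of 137 genes, of which 68 had a named row and 49 were tested. Among the 7 further GalNAc transferases tested, GALNT13, known mainly from neurons, fell with siRNA 2. Its signal was 6.42 and 6.34 with siRNA 1 and 5.53 and 5.33 with siRNA 2, against 6.49 and 6.52 with the control siRNA, so that both siRNA 2 arrays were far below the rest. The log2 difference was -1.07 ± 0.09 with siRNA 2 (SE; limma adjusted p = 0.0008) and -0.13 with siRNA 1 (0.494), and siRNA 1 minus siRNA 2 was 0.95 ± 0.09 (adjusted p = 0.00102). The other 6 were not called in any comparison, and the list's median was 0.05 with siRNA 1 and 0.01 with siRNA 2.

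Of the enzymes that start other kinds of O-linked sugar, 9 were tested and EOGT, which puts N-acetylglucosamine on EGF repeats of proteins such as Notch, rose with both siRNAs. It had 8.69 and 8.48 with siRNA 1 and 8.59 and 8.69 with siRNA 2, against 8.08 and 8.12 with the control siRNA. All 4 siRNA arrays were above both control arrays, by 0.48 ± 0.09 and 0.54 ± 0.09 (SE; limma adjusted p = 0.0342 and 0.0169). Both calls were lost with no minimum (0.186 and 0.121), with every row tested (0.0936 and 0.0598) and without any 1 array of the siRNA concerned or of the control (0.0634 to 0.148 and 0.0577 to 0.0959). The siRNA 1 call was also lost with only the arrays of its comparison (0.0539).

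GNPNAT1, which acetylates glucosamine phosphate on the way to UDP-GlcNAc and UDP-GalNAc, was the called gene among 5 of the UDP-GalNAc supply. It had 8.89 and 8.93 with siRNA 1 and 8.31 and 8.26 with siRNA 2, against 8.85 and 8.81 with the control siRNA. With siRNA 2 it fell by 0.55 on the log2 scale (SE 0.07, limma adjusted p = 0.00423, or 0.0544 with no minimum), and siRNA 1 minus siRNA 2 was 0.63 (0.00198). Both of its dimmer rows were also lower with siRNA 2, by -0.96 and -0.73. They were lower with siRNA 1 as well, by -0.50 and -0.29, where the brightest row differed by 0.08. These rows had means of 4.38 and 4.15, under the minimum of 5.45, so nothing is read from them.

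Cadherins are the known substrates of the TMTC enzymes, and 5 genes of the cadherin and protocadherin list were tested. The desmosomal cadherin DSC2 had 5.94 and 5.74 with siRNA 1 and 7.53 and 7.38 with siRNA 2, against 6.41 and 6.84 with the control siRNA. It fell by 0.78 on the log2 scale with siRNA 1 and rose by 0.83 with siRNA 2 (SE 0.15 each; limma adjusted p = 0.0337 and 0.0200), the same order of groups as GALNT1. Without 1 array of the groups concerned the adjusted p reached 0.181 with siRNA 1 and 0.0960 with siRNA 2, and with no minimum it was 0.166 and 0.123. The giant cadherin FAT1 differed between the siRNAs, by 0.34 ± 0.07 (adjusted p = 0.0267, up to 0.161 over alternatives), and from control by 0.13 and -0.21, which did not pass.

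In the remaining lists limma called 0 genes in the 3 comparisons; at an unadjusted p under 0.05 there were 2, 0 and 2 of the O-mannose list and 0, 1 and 1 of the dolichol list, in the order siRNA 1, siRNA 2 and between them, and 0 of the other lists. Of the O-mannose and dystroglycan pathway 7 genes were tested. POMK, the kinase of the O-mannose glycan, differed by 0.35 with siRNA 1 (limma adjusted p = 0.0900). That difference passed with the minimum at the 75th percentile (0.0326) and with the trend and robust prior (0.038). LARGE2, which lengthens the O-mannose glycan, differed by 0.26 with siRNA 2 (0.494). Of the supply of dolichol phosphate mannose, the mannose donor of POMT1 and the TMTC enzymes, 10 genes were tested, with GMPPB at -0.26 with siRNA 2 (0.197) and DOLPP1 at 0.13 (0.426). C1GALT1C1, the chaperone of the enzyme that makes the core of most mucin-type chains, was the only gene tested of its list and had 0.13 and 0.22. Of the mucins and other carriers 5 were tested, where PODXL had -0.12 and SDC1 -0.06 with siRNA 2. Over all 49 genes, 1 was called higher and 1 lower with siRNA 1, 2 higher and 2 lower with siRNA 2, and 3 higher and 1 lower between siRNA 1 and siRNA 2. These 2, 4 and 4 genes of 49 are near the 4.66%, 6.83% and 9.15% called among all genes tested, so nothing particular to the pathway is read from them. Their medians were 0.03, 0.02 and -0.01.

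**Figure D3:**
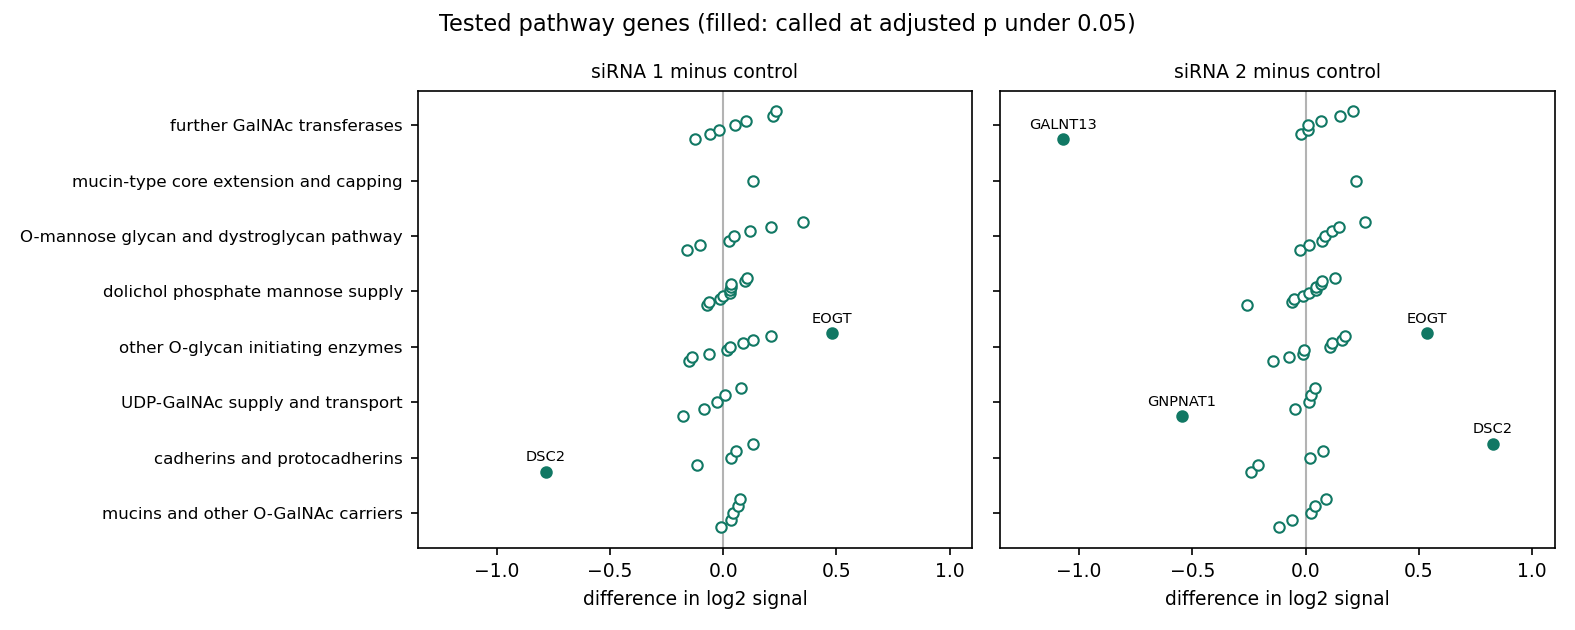
Difference in log2 signal from control (horizontal axes) of the 49 tested pathway genes, by list (vertical axis), with siRNA 1 (left) and siRNA 2 (right). Each circle is a gene, filled and named where called. DSC2 lies at -0.78 with siRNA 1 and 0.83 with siRNA 2, EOGT lies right of 0 with both, and GALNT13 (-1.07) and GNPNAT1 (-0.55) lie left with siRNA 2, while most other genes lie near 0.

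The genes whose profiles were most like those of GALNT1 and TMTC3 were found by the root mean square difference over the 6 arrays, after the control mean of each gene was subtracted. For GALNT1 they were LIN7C, a scaffold protein of cell polarity (0.145), SCML1 (0.184), the Polycomb protein SUZ12 (0.215), DSC2 (0.228) and the kinase STK39 (0.247). All 5 were lower with siRNA 1, between -0.90 for SUZ12 and -0.69 for STK39, and higher with siRNA 2, between 0.26 for SUZ12 and 0.83 for DSC2. For TMTC3 they were the helicase RECQL (0.207), ARHGAP1 (0.249), PRUNE1 (0.294), ANKRD1 (0.306) and the mRNA export factor ALYREF (0.314). With siRNA 2 their differences from control were smaller than that of TMTC3 and lay between -1.69 for RECQL and -1.50 for ANKRD1. These genes were picked for their likeness and are described here without a test.

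**Figure D4:**
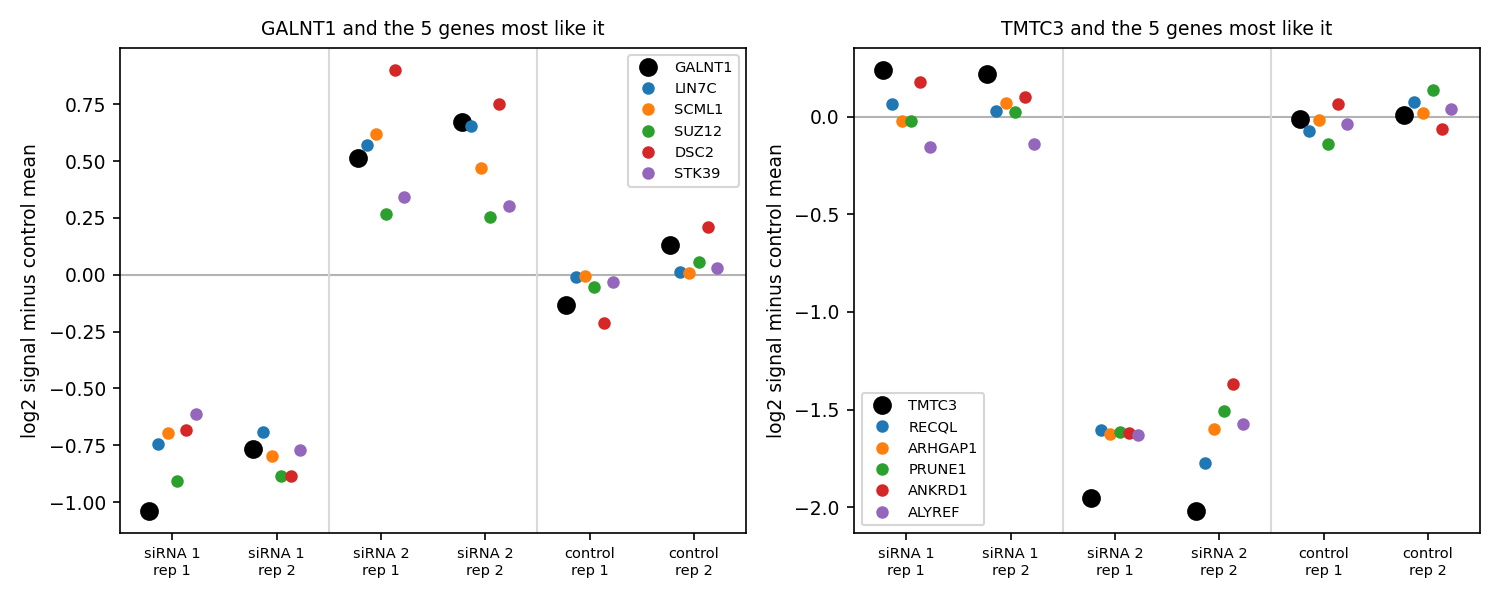
Log2 signal minus the control mean (vertical axes) of GALNT1 and TMTC3 (large black points) and of the 5 genes most like each (coloured points), on the 6 arrays (horizontal axes). The GALNT1 group lies below 0 with siRNA 1 and above 0 with siRNA 2, and the TMTC3 group lies below -1.3 with siRNA 2 and near 0 elsewhere.

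The nearest tested protein-coding genes on either side of the 10 enzymes, in the RefSeq gene order of GRCh38.p14, were mostly not called. Beside TMTC3, the cilium gene CEP290 differed by -0.09 with siRNA 2 and KITLG, the ligand of the KIT receptor, by 0.29 (limma adjusted p = 0.657 and 0.0992). Beside TMTC2, CCDC59 and ALX1 differed by -0.21 and 0.15 with siRNA 1 (0.189 and 0.337). Beside GALNT1, the chromatin remodelling subunit INO80C fell by 0.35 on the log2 scale with siRNA 2 (limma adjusted p = 0.0381, from 0.0348 to 0.211 over alternatives, 6 of 15 of which called it). Its difference was 0.18 with siRNA 1 (0.242), and siRNA 1 minus siRNA 2 was 0.53 (0.00641, called in 13 of 15 alternatives), whereas RMP24 was not called. Of all 20 neighbours, 2 were called with siRNA 1, GRB14 beside GALNT3 (0.44) and MFAP3 beside GALNT10 (-0.57), each in 10 alternatives as well. With siRNA 2 there were 2, INO80C and IPO8 beside TMTC1 (-0.43), which was called in 6 of 16 alternatives. Between the siRNAs there were 3, INO80C, IPO8 (0.47, in 10 of 16 alternatives) and HMGB2 beside GALNT7 (-0.37, in 6 of 15). Among all genes tested 4.66%, 6.83% and 9.15% were called, and with 20 neighbours nothing is read from these counts.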

How the data were processed

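RNA on 6 arrays in 3 groups was analysed. Per the submitters' processing notes, the authors used RMA, with no version given, and the deposited values are its log2 signals. RMA corrects background, equalises the arrays' distributions and summarises the probes of a transcript, and it compresses differences of dim genes. Of 53617 rows, 16098 had exactly 1 gene symbol in the platform annotation, 0 had several and 37519 are unnamed here. All 16098 matched the RefSeq gene table of GRCh38.p14 by gene identifier and stand for 14884 genes; where a gene had several rows (779 genes), the brightest on average was taken.

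Each gene with a mean of at least 5.45 entered a limma model (lmFit, eBayes; version 3.58.1, R 4.3.3) of all 6 arrays in 3 groups, with 3 residual and 4.09 prior degrees of freedom. Calls are at a Benjamini-Hochberg adjusted p under 0.05 over all 7442 genes. An exact permutation of 2 arrays against 2 cannot go below p = 0.333, so the calls depend on limma borrowing spread across genes. The number of arrays limits the precision. The steps were tested on simulated data. Figures used matplotlib 3.10.9.

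The members and gene lists were chosen with earlier results of these data known. The text names all members, MYEOV, every called list gene (or the 2 with the largest change where none was called), the 5 genes most like GALNT1 and TMTC3, and the members' neighbours. Alternatives were other minimums, every row tested, averaged rows, quantile normalization, median centring, only the groups compared, the replicate block, a trend and robust prior, array weights and each array left out; those for the neighbours were added after seeing the data.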

Additional observations from a re-analysis of the deposited data

Results flagged for a closer look

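Limma's test of siRNA 1 minus siRNA 2 called 2 of the 6 tested enzymes not picked on their values. It also called 4 of 49 pathway genes and 3 of 20 neighbours, beside 9.15% of the 7442 genes tested. From these counts nothing is read. The calls of GALNT13, GNPNAT1 and DSC2 held under every alternative in which these genes were tested. Those of GALNT10, TMTC2, FAT1, INO80C, IPO8 and HMGB2 were each lost under some alternatives. GALNT10 differed by 0.40 (adjusted p = 0.0484) and TMTC2 by -0.53 (0.0116). GALNT13 differed by 0.95 (0.00102), GNPNAT1 by 0.63 (0.00198), DSC2 by -1.61 (0.00100) and FAT1 by 0.34 (0.0267). Among neighbours, INO80C differed by 0.53 (0.00641), IPO8 by 0.47 (0.0256) and HMGB2 by -0.37 (0.0386).

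GALNT1, at -1.49, and TMTC3, at 2.22, are listed because every array of one siRNA lay on the opposite side of both control arrays from every array of the other. They were picked for moving differently with the siRNAs, and the difference was not tested. The trait is not particular to them: 7.38% of the 7442 genes tested had it, among them GALNT2, whose difference between the siRNAs did not pass the test, and the pathway genes DSC2, FAT1, GNPNAT1, POGLUT1 and SDC1.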

How the results depend on the processing

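Of the 6 tested enzymes not picked on their values, the number called with siRNA 1 was 0 with no minimum and with every row tested, 2 with the trend and robust prior (GALNT7 and TMTC2), and 0 to 1 with each array left out, beside 1. With siRNA 2 it was 0 under all alternatives. Between the siRNAs it was 0 with no minimum, 1 with every row tested (TMTC2) and 0 to 2 with each array left out, beside 2. TMTC2 and POMT1 are under the minimum at the 75th percentile, where the call with siRNA 1 was GALNT7. Of the pathway genes, 49 were tested, but 68 with no minimum and 27 at the 75th percentile, where DSC2 and GALNT13 were not tested. There the calls with siRNA 1 were EOGT and POMK, and the trend and robust prior called POMK beside DSC2 and EOGT. With siRNA 1, 0 were called with no minimum and with every row tested, 1 with only the 2 groups compared and 0 to 1 with each array left out, beside 2. With siRNA 2, 1 was called with no minimum, 2 with the 75th percentile and 2 with every row tested, and 2 to 4 with each array left out, beside 4. Between the siRNAs 2 were called with the 75th percentile and 3 to 4 with each array left out, beside 4. With no minimum and with every row tested, more features entered both the adjustment and the estimate of limma's variance prior. Which of these moved the calls was not tested. Of the 20 neighbours (9 tested at the 75th percentile), whose alternatives were added after seeing the data, with siRNA 1, 0 were called with no minimum and with every row tested, 1 at the 75th percentile and 0 to 2 with each array left out, beside 2. With siRNA 2 it was 0 with no minimum, with every row tested, with only the 2 groups compared and with each array left out, and 1 with array weights, beside 2. Between the siRNAs it was 0 with no minimum, 1 with every row tested and 1 to 2 with each array left out, beside 3. Where an array left a group with 1, that array was assumed to vary like the others.

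Same-numbered arrays deviated together across genes, with correlations of 0.27, 0.20 and 0.25 between siRNA 1 and control, siRNA 2 and control, and the siRNAs, but with 2 numbers per group this does not show a pairing. The replicate block gave 1, 0 and 2 called enzymes and 2, 4 and 4 pathway genes, the same counts as without it, but 2, 3 and 5 neighbours, beside 2, 2 and 3.

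Reversals were of differences that were not called before or after. With each array left out, the difference with siRNA 1 ran from -0.073 to 0.099 for POMT1, from -0.30 to 0.35 for LARGE2, from -0.10 to 0.16 for GMPPB, from -0.041 to 0.11 for DOLPP1 and from -0.074 to 0.057 for PODXL. With siRNA 2 it ran from -0.20 to 0.027 for GALNT10, from -0.11 to 0.068 for TMTC2, from -0.034 to 0.18 for POMK, from -0.061 to 0.58 for LARGE2 and from -0.24 to 0.0059 for PODXL. Between the siRNAs it ran from -0.10 to 0.068 for POMT1, from -0.23 to 0.049 for C1GALT1C1, from -0.17 to 0.053 for EOGT and from -0.014 to 0.23 for PODXL. For CEP290 it ran from -0.20 to 0.027 with siRNA 2 and from -0.11 to 0.12 between the siRNAs, where it was -0.009 under quantile normalization. PODXL had 0.0009 with siRNA 1 under quantile normalization, and GNPNAT1 had -0.24 with siRNA 1 when its rows were averaged. Signal over background was not measured here, so dim genes such as GALNT3 and TMTC1 have no usable limit.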
